A study of Mus musculus with 9 samples.

Results

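The heavy constant genes encode the part of an antibody heavy chain that sets its isotype, and they were read here in murine lymphomas driven by Bcl6. The members were the rows of the raw gene count table whose symbol was Ighm, Ighd, Ighg3, Ighg1, Ighg2b, Ighg2c, Ighe or Igha. A row was found for 7 of the 8 symbols among the 41128 genes of the table, and Ighd is not analysed here, so every share below is a share of 7 genes. RNA-seq was performed on 9 lymph node lymphomas of 2 genotypes. The labels do not say that each tumor came from its own mouse, so the p-values measure the spread between these tumors. The Bcl6 tumors (n = 3) were IµBcl6;Cγ1 wt/cre;Smc3 wt/wt, and the Smc3/Bcl6 tumors (n = 6) were IµBcl6;Cγ1 wt/cre;Smc3 wt/-, with 1 deleted allele of Smc3, a subunit of the cohesin ring. Both genotypes carried IµBcl6, a Bcl6 transgene knocked in at Ighm, and Cγ1-Cre, a Cre recombinase knocked in at Ighg1 and used to delete the floxed Smc3 allele in germinal center B cells. Each tumor thus held engineered alleles at 2 of the members, which gene-level counts do not separate from the unmodified ones. Tumor 1 of each genotype was labelled as mesenteric lymph node and the other 7 as lymph node. The paper describes the RNA-seq material of both genotypes as lymphoma cells of mesenteric lymph nodes. Whether the labels mark a difference of site is therefore not known.

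A naive B cell transcribes its rearranged variable exon together with Ighm and Ighd, and makes IgM and IgD by splicing. Class switch recombination replaces Ighm with a downstream constant gene and leaves the variable exon and the antigen specificity as they were. Each downstream gene is also transcribed from its own intervening promoter before a switch, under the control of cytokines, so a count on such a gene does not by itself show that a cell has switched. In the mouse, Ighg3, Ighg1, Ighg2b and Ighg2c encode IgG subclasses, Ighe encodes the IgE chain of allergic and anti-parasite responses, and Igha encodes the IgA chain of mucosal antibody. Strains of 129 origin, from which the Cre allele was bred onto a C57BL/6 background, carry an Ighg2a gene in place of Ighg2c, and its part in the Ighg2c counts was not tested.

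On GRCm38 (GENCODE M21) the 8 genes lie on the minus strand of chromosome 12 over 167.9 kb, from Ighm at chr12:113418558-113422730 to Igha at chr12:113254830-113260236. The start of Ighg3 lies 61.5 kb downstream of the start of Ighm, Ighg1 92.2 kb, Ighg2b 114.8 kb, Ighg2c 133.8 kb, Ighe 149.5 kb and Igha 162.5 kb. The IgG genes are close copies, which bears on how well reads can be assigned, and the first 90 bases of their first constant exon (CH1) are shown for that reason, with capitals marking bases that differ from Ighg2c at the same position. They were read from the minus strand at chr12:113288843-113288932 for Ighg2c, chr12:113307844-113307933 for Ighg2b, chr12:113330434-113330523 for Ighg1 and chr12:113361143-113361232 for Ighg3.
Ighg2c: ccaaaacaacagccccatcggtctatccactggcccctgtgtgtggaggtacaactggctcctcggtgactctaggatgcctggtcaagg
Ighg2b: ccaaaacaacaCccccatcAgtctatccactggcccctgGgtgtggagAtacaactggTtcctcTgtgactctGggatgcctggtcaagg
Ighg1: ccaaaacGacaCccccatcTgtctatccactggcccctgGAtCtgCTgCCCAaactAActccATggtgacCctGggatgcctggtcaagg
Ighg3: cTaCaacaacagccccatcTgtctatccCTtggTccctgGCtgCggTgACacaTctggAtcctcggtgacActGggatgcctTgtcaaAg
Over the whole exon of 291 bases, Ighg2b differed from Ighg2c at 36 positions, Ighg1 at 35 and Ighg3 at 63. The same stretch of Ighe at chr12:113273159-113273248 and of Ighm at chr12:113422641-113422730 on the minus strand is shown, with no alignment marked, because Ighm held most of the counts and Ighe carried the only genotype difference past the thresholds.
Ighe: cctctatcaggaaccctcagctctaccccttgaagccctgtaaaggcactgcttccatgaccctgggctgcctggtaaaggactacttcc
Ighm: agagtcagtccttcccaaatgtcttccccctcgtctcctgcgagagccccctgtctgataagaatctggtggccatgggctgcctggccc
The CH1 exon of Ighe was 54.0 to 61.3% identical to those of the IgG genes, and that of Ighm 49.7 to 53.7% identical to those of the other 7 genes. Of all windows of 50 bases in the annotated transcripts, 5.49% of those of Ighg2c occurred in another member, 4.15% of those of Ighg2b, 1.58% of those of Ighg3 and 0.393% of those of Ighg1. No window of Ighm, Ighe or Igha occurred in another member. Reads of the 4 IgG genes could therefore be split between copies, most of all those of Ighg2c and Ighg2b.

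The libraries held between 10156728 and 17774577 counts. One of them, Smc3/Bcl6 tumor 2, stood apart, with a trimmed mean of M-values (TMM) factor of 0.693 against 0.965 to 1.10 in the others, and the members' values that rest most on it are also given without it. Smc3 was at 87.9 to 125 CPM (counts scaled to library size and TMM factor) in Bcl6 tumors and 27.9 to 111 CPM in Smc3/Bcl6 tumors (median 106), and its log2 fold change was -0.19 (SE 0.38). The lowest value was that of Smc3/Bcl6 tumor 2, and without it the log2 fold change was 0.013 (SE 0.14), so gene-level Smc3 counts did not separate the genotypes. The paper reports that lower Smc3 expression was verified, with RT-qPCR of tumors of both genotypes. Bcl6 lay at 175 to 646 CPM in Bcl6 and 155 to 658 CPM in Smc3/Bcl6 tumors. B cell markers such as Cd79a and Cd79b were present in every tumor. The summed level of 9 such markers was 2785 to 8993 CPM in Bcl6 and 4889 to 11215 CPM in Smc3/Bcl6 tumors. The markers did not move as one in Smc3/Bcl6 tumor 2. There Pax5 (2.96 CPM) and Ebf1 (2.75 CPM) were the lowest of all tumors, while Cd79b (2299 CPM) was the highest.

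Ighm, the gene of the IgM heavy chain, held most constant gene counts in every tumor. Its level was 21139, 6159 and 9925 CPM in Bcl6 tumors 1 to 3. In Smc3/Bcl6 tumors it was 7086 CPM at the lowest, 20118 CPM at the median and 66062 CPM at the highest. The highest value came from Smc3/Bcl6 tumor 2, the library that stood apart, and the groups overlapped. Ighm made up 96.2, 89.3 and 88.7% of the summed counts of the 7 genes in Bcl6 tumors, and 88.7 to 97.4% (median 93.9%) in Smc3/Bcl6 tumors. The 7 genes together took between 0.757% and 4.70% of a library, with the highest share again in Smc3/Bcl6 tumor 2. In these bulk samples, fewer cells of a type and less RNA per cell cannot be told apart. The shares rest on 100527 to 641708 member counts per tumor, and the widest 95% Wilson interval was that of Ighm in Smc3/Bcl6 tumor 5, from 89.8 to 90.2%. Such intervals cover counting error only.

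Levels of different genes were compared per kb of annotated exon, since the genes differ in length. Over the 9 tumors the median was 8732 CPM per kb for Ighm, 201 for Ighg2c, 84.6 for Igha, 67.3 for Ighg3, 58.2 for Ighg2b, 47.4 for Ighe and 7.26 for Ighg1. The order of median levels did not follow position along the locus. Ighm stood above Ighg2c in 9 of 9 tumors, by 5.44 ± 1.38 on the log2 scale (mean and SD of the difference, n = 9). Ighg2c exceeded Igha in 6 of 9 tumors, and each of the next 3 neighbours in the order exceeded the following gene in 5 of 9, so the genes from Ighg2c to Ighe did not differ from their neighbours beyond the spread between tumors. Ighg1, the locus that carries Cre on 1 allele, was last, with Ighe above it in 8 of 9 tumors by 2.36 ± 1.39 (SD, n = 9). Bcl6 tumor 1 was the exception, with 13.4 CPM per kb of Ighg1 and 11.6 CPM per kb of Ighe. With coding length in place of exon length, a scale added after the data were seen, Ighe exceeded Ighg1 in 7 of 9 tumors and Ighg2b exceeded Ighe in 8 of 9. How much of the low Ighg1 level belongs to the Cre allele was not tested.

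**Figure D1:**
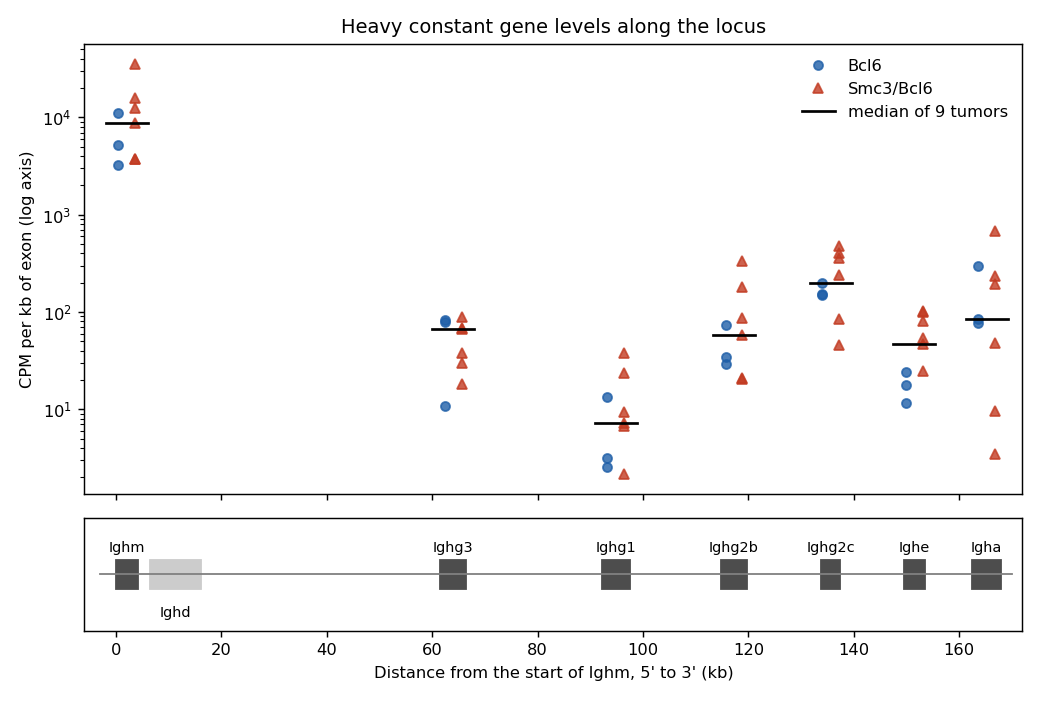
Level of each heavy constant gene in each tumor (upper panel, CPM per kb of exon on a log axis, circles for 3 Bcl6 and triangles for 6 Smc3/Bcl6 tumors, black line for the median of 9) above a map of the locus to scale (lower panel, distance in kb from the start of Ighm, 5′ to 3′). Ighm lies above all others at a median of 8732 CPM per kb, Ighg1 has the lowest median at 7.26, and Ighd is drawn on the map without values.

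The genes downstream of Ighm and Ighd, called switched genes here, made up 3.78, 10.7 and 11.3% of the counts of the 7 genes in Bcl6 tumors and 2.56 to 11.3% (median 6.10%) in Smc3/Bcl6 tumors. The lowest switched share was in Smc3/Bcl6 tumor 2 and the highest in Bcl6 tumor 3, and the ranges of the groups overlapped almost completely. The mean was 8.59 ± 4.18% (SD, n = 3) in Bcl6 and 6.68 ± 3.40% (SD, n = 6) in Smc3/Bcl6 tumors, which did not differ beyond the spread between tumors (p = 0.5, two-sided exact permutation test over 84 splits, smallest possible p 0.0238). Without the tumors labelled mesenteric, which hold 1 of each genotype, both Bcl6 tumors (10.7 and 11.3%) lay above all 5 Smc3/Bcl6 tumors (2.56 to 10.01%), a difference of -5.24 percentage points with p = 0.0952, the smallest the exact permutation test allows over 21 splits. With 1 tumor left out the difference ran from -4.31 to -0.53 percentage points, the smallest without Bcl6 tumor 3. The effective number of isotypes, the exponential of the Shannon entropy of the length-scaled shares, is 1 where a single isotype is present. It was 1.46 ± 0.199 (SD, n = 3) in Bcl6 and 1.38 ± 0.180 (SD, n = 6) in Smc3/Bcl6 tumors (p = 0.643, the same exact permutation test).

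Tumors differed in which switched gene led. Ighg2c held the largest share of switched counts in 5 tumors, Igha in 3 and Ighg2b in 1, and per kb of exon Ighg2c led in 6, Igha in 2 and Ighg2b in 1. The tumor that changed was Bcl6 tumor 2, in which Igha and Ighg2c had 28.0 and 27.6% of the counts. The shares that follow are shares of counts. The leading gene was Ighg2c in Bcl6 tumor 1 (32.0%) and in Smc3/Bcl6 tumors 2 (36.8%), 3 (38.0%), 5 (60.7%) and 6 (28.5%). Igha led in Bcl6 tumors 2 (28.0%) and 3 (63.2%) and in Smc3/Bcl6 tumor 1 (59.8%), and Ighg2b led only in Smc3/Bcl6 tumor 4 (49.0%). On neither scale did Ighg3, Ighg1 or Ighe lead in any tumor.

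**Figure D2:**
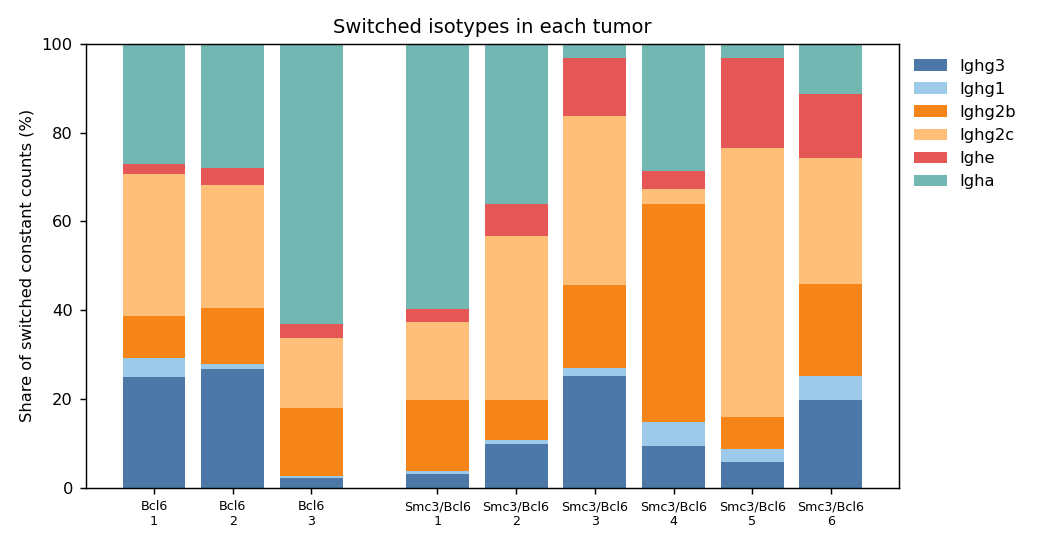
Share of each switched constant gene in the summed counts of Ighg3, Ighg1, Ighg2b, Ighg2c, Ighe and Igha (y axis, %), with 1 stacked bar per tumor and the replicate number under the genotype. Igha takes 63.2% in Bcl6 tumor 3 and 59.8% in Smc3/Bcl6 tumor 1 but 3.10% in Smc3/Bcl6 tumor 3, and Ighg2b takes 49.0% in Smc3/Bcl6 tumor 4.

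Igha varied most among the members. It was at 226, 205 and 802 CPM in Bcl6 tumors, and at 1816, 625, 9.18, 520, 25.9 and 127 CPM in Smc3/Bcl6 tumors 1 to 6, a 198-fold range over the 9 tumors. The highest and the lowest value both came from Smc3/Bcl6 tumors, so the spread inside that genotype spanned the values of the Bcl6 tumors. The fold change between genotypes was 0.34 (log2, SE 1.29, approximate 95% interval -2.20 to 2.88). Its share of the 7 genes was 3.72 ± 3.14% (SD, n = 3) in Bcl6 and 1.75 ± 2.52% (SD, n = 6) in Smc3/Bcl6 tumors (p = 0.238, exact permutation test). That difference of -1.97 percentage points was -0.249 without Bcl6 tumor 3 and -2.97 without Smc3/Bcl6 tumor 1. Among the 7 tumors labelled lymph node it was -4.32, with 2.98 and 7.17% against 0.124 to 1.66% and p = 0.0952, the smallest that the exact permutation test allows there. When Smc3/Bcl6 tumor 1 was left out, Igha had a log2 fold change of -0.65, and it was -0.069 without Bcl6 tumor 1 and -0.080 without Bcl6 tumor 2, so its direction rests on single tumors.

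The IgG genes did not follow each other closely. Ighg2c, the IgG2c chain of C57BL/6 mice, was at 266, 202 and 200 CPM in Bcl6 tumors and between 60.8 and 639 CPM (median 402) in Smc3/Bcl6 tumors. Ighg2b, which encodes IgG2b, was at 78.2, 92.9 and 195 CPM in Bcl6 tumors and between 55.1 and 890 CPM (median 194) in Smc3/Bcl6 tumors. Bcl6 tumors lay within the range of Smc3/Bcl6 tumors for both genes. In Smc3/Bcl6 tumor 4 the counts of Ighg2b were 14.6 times those of Ighg2c, with 13388 and 915 counts, while in the other 8 tumors the ratio was 0.117 to 0.978. This tumor had at once the highest Ighg2b and the lowest Ighg2c level of the 9. The fold changes between genotypes were 1.36 (log2, SE 0.89, approximate 95% interval -0.39 to 3.11) for Ighg2b and 0.69 (SE 0.66, -0.61 to 1.98) for Ighg2c.

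Ighg3, which encodes the IgG3 chain common in responses to polysaccharides, was at 208, 197 and 27.0 CPM in Bcl6 tumors and between 45.4 and 222 CPM (median 132) in Smc3/Bcl6 tumors. The lowest value of the 9 was that of Bcl6 tumor 3, the other Bcl6 tumors were near the top of the range, and the log2 fold change was -0.15 (SE 0.64, approximate 95% interval -1.40 to 1.10). Ighg1, the gene of IgG1 and the site of Cre, was at 34.8, 8.14 and 6.70 CPM in Bcl6 tumors. In Smc3/Bcl6 tumors 1 to 6 it was at 17.5, 18.8, 5.63, 97.3, 24.4 and 61.7 CPM. The groups overlapped, Smc3/Bcl6 tumors 4 and 6 were the highest, and the log2 fold change was 1.18 (SE 0.89, approximate 95% interval -0.55 to 2.92). Among the 3 tumors per genotype that share replicate numbers, the value with the replicate number as a block was -0.05 (SE 0.54). With the same tumors but no block (chosen after seeing the data) the value was -0.24, so the positive direction for Ighg1 was seen only with Smc3/Bcl6 tumors 4 to 6 included. The value also depended on Bcl6 tumor 1, the highest of its genotype, and without that tumor it was 2.27 (SE 1.02).

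Ighe was higher in Smc3/Bcl6 than in Bcl6 tumors and was the only member past the thresholds of the study, which ask for p below 0.1 before adjustment and a fold change beyond 0.56 on the log2 scale in either direction. In Bcl6 tumors it was at 18.4, 28.4 and 38.6 CPM, and in Smc3/Bcl6 tumors 1 to 6 at 84.8, 127, 39.1, 75.1, 160 and 163 CPM. All 6 Smc3/Bcl6 tumors lay above all 3 Bcl6 tumors, 5 of them clearly and Smc3/Bcl6 tumor 3 barely. Bcl6 tumors averaged 28.5 ± 10.1 CPM (SD, n = 3), whereas Smc3/Bcl6 tumors averaged 108 ± 49.8 CPM (SD, n = 6). On the log2 scale Ighe differed by 1.92 (SE 0.49, edgeR quasi-likelihood test, unadjusted p = 0.00272, adjusted p = 1.00). The exact permutation test on log2 CPM gave p = 0.0238, the smallest that 84 splits allow.

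The count of 1 member called of 7 is to be read against the background of all genes. At the same thresholds 1.28% of 14057 tested genes were higher and 0.868% lower in Smc3/Bcl6 tumors, and 0.285% were higher without overlap between the groups. At an adjusted p below 0.05, 0% of the genes were called by edgeR, with 79 genes at an unadjusted p below 0.05, and neither DESeq2 nor limma called any gene, with 209 and 1171 genes at an unadjusted p below 0.05. Ighe therefore did not pass a correction over all genes. With the replicate block over 6 tumors, 0.337% of 13360 genes were higher at the same thresholds, and Ighe was among them (log2 fold change 1.46, SE 0.56). When Smc3/Bcl6 tumor 2 was left out, Ighe differed by 1.87 on the log2 scale (SE 0.52). Scaled by library size alone, the median log2 fold change of all genes moved by -0.10, 108 genes were higher and 175 lower, against 180 and 122 with TMM, and Ighe remained higher by 1.82.

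The absence of overlap in Ighe rested on a gap smaller than counting error. Bcl6 tumor 3 had 409 counts, or 38.6 CPM with an exact Poisson 95% interval of 34.9 to 42.5, and Smc3/Bcl6 tumor 3 had 750 counts, or 39.1 CPM with an interval of 36.4 to 42.0. Scaled by library size alone these values were 40.3 and 42.2 CPM. With immunoglobulin and T-cell receptor genes left out of library size and TMM, they were 40.4 and 40.3 CPM and the groups overlapped, with p = 0.0476 in the exact permutation test. Both scalings of the overlap were added after the data were seen.

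The rise in Ighe level was not matched by a rise in its share of constant gene counts that passed a test. That share was 0.0838, 0.412 and 0.345% in Bcl6 tumors and between 0.188 and 2.02% (median 0.423%) in Smc3/Bcl6 tumors, with means of 0.280 ± 0.173% (SD, n = 3) and 0.702 ± 0.697% (SD, n = 6) and p = 0.333 (exact permutation test). The difference of 0.422 percentage points was 0.159 without Smc3/Bcl6 tumor 5. Among switched counts only, Ighe made up 2.21, 3.87 and 3.04% in Bcl6 tumors. In Smc3/Bcl6 tumors 1 to 6 it made up 2.79, 7.33, 13.2, 4.14, 20.1 and 14.4%. In that genotype 5 tumors were above every Bcl6 tumor and tumor 1 was within their range, with means of 3.04 ± 0.828% (SD, n = 3) and 10.3 ± 6.71% (SD, n = 6) and p = 0.0714 (exact permutation test).

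**Figure D3:**
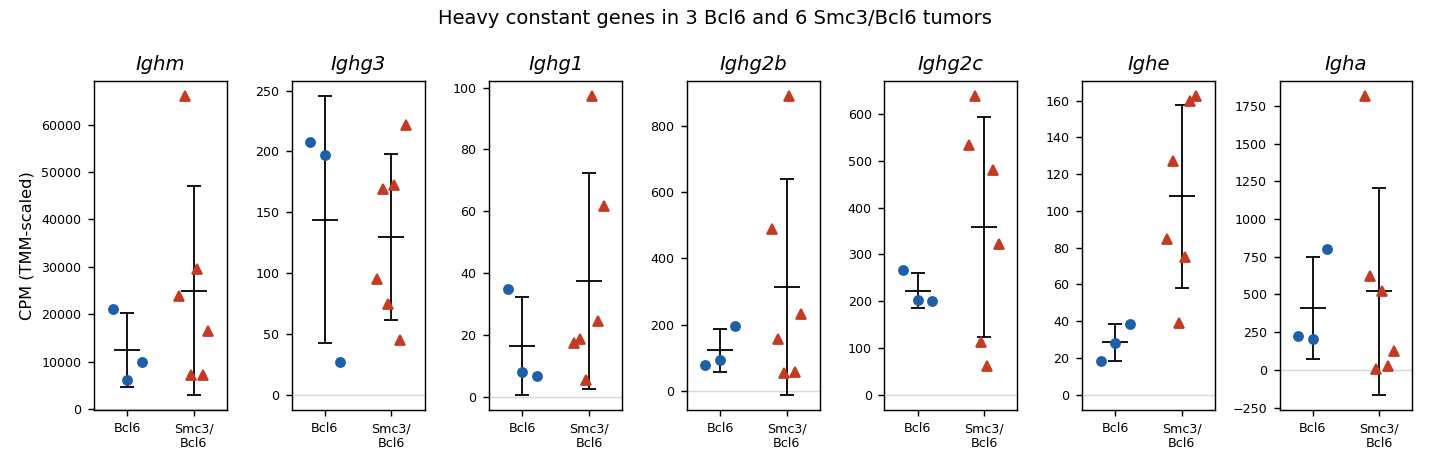
Level of each member in CPM on a linear axis, with circles for 3 Bcl6 tumors, triangles for 6 Smc3/Bcl6 tumors and a bar with whiskers for the mean ± SD of a genotype. Ighe is the member whose groups do not overlap (at most 38.6 against at least 39.1 CPM), and each of the other members has Smc3/Bcl6 tumors within or below the range of Bcl6 tumors.

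The other members had unadjusted p-values of 0.160 (Ighg2b) to 0.818 (Ighg3) in the edgeR quasi-likelihood test, with adjusted p = 1.00 for each. Their exact permutation p on log2 CPM lay between 0.333 and 0.881. The fold change of Ighm was 1.01 (log2, SE 0.78, approximate 95% interval -0.51 to 2.54), and without Smc3/Bcl6 tumor 2 it was 0.46 (SE 0.64). Of the 7 members, 6 had a fold change above 0, with a median of 1.01, whereas 57.4% of all tested genes were above 0, with a median of 0.06. The members share tumors, cells and a locus, so this count is a description only. The summed level of the 7 genes was 13.54 ± 0.84 (log2 CPM, SD, n = 3) in Bcl6 and 14.27 ± 1.23 (SD, n = 6) in Smc3/Bcl6 tumors (p = 0.429, exact permutation test). This difference of 0.73 was 0.37 without Smc3/Bcl6 tumor 2 and ran from 0.33 to 1.17 with 1 tumor left out. No share of any member passed the test between genotypes, with exact permutation p-values from 0.238 (Igha) to 0.929 (Ighg2b) over 7 genes.

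**Figure D4:**
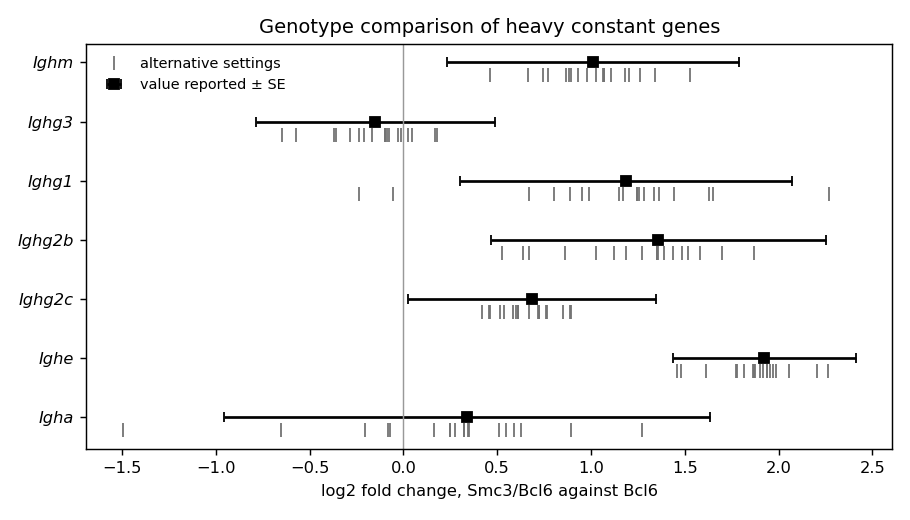
Log2 fold change of each member between Smc3/Bcl6 and Bcl6 tumors (x axis), with squares and bars for the value ± SE and ticks for the values under the alternative settings, left-out tumors included. Ighe stays between 1.46 and 2.26 under every setting shown, whereas Igha, Ighg1 and Ighg3 have values on both sides of 0.

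Genes that carry out or steer class switching were read beside the members. Of 30 tested genes of class switch recombination none was past the thresholds in either direction, and their median log2 fold change was -0.00. None of 8 tested cytokine and ligand genes and none of 25 tested receptors and signal transducers was past the thresholds. Over all 14057 tested genes 1.28% were higher and 0.868% lower at these thresholds, so a count of 0 does not set these lists apart. Il4, the cytokine that directs switching to Ighe and Ighg1, was at 0.881, 2.48 and 7.36 CPM in Bcl6 tumors, and at 11.7 CPM in Smc3/Bcl6 tumor 5 but 0.399 to 1.90 CPM in the other 5 Smc3/Bcl6 tumors.

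None of 8 tested partners in antibody assembly was past the thresholds, where 1.28% of all tested genes were higher and 0.868% lower. Jchain, listed as Igj in the table, joins IgM and IgA into polymers. It was at 491, 1106 and 883 CPM in Bcl6 tumors and at 2919, 715, 165, 2775, 654 and 1297 CPM in Smc3/Bcl6 tumors 1 to 6. The tumor with the highest Jchain was the one with the highest Igha, and the tumor with the lowest Jchain had the lowest Igha. Between these extremes the order differed. Smc3/Bcl6 tumor 4 had 2775 CPM of Jchain with 520 CPM of Igha, and Bcl6 tumor 3 had 883 CPM of Jchain with 802 CPM of Igha. Igkc, the constant gene of the kappa light chain, was at 10363, 6007 and 2935 CPM in Bcl6 tumors and between 3506 and 21664 CPM in Smc3/Bcl6 tumors, highest in tumor 2 as Ighm was. Mzb1, a chaperone of IgM assembly, had the largest fold change of these partners (log2 1.34, SE 0.76, unadjusted p = 0.111, edgeR quasi-likelihood test). It was at 3375 CPM in Smc3/Bcl6 tumor 2 and 197 to 1166 CPM in the other 5, and without that tumor the log2 fold change was 0.66 (SE 0.52).

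Marker lists of the cells a lymphoma sample can hold were read beside Ighe. Plasma cell markers summed to 1919, 2338 and 2100 CPM in Bcl6 tumors and to 5369, 6584, 1057, 3909, 2582 and 3293 CPM in Smc3/Bcl6 tumors 1 to 6, with 0 of 10 past the thresholds. In this sum 5 of the 6 Smc3/Bcl6 tumors lay above every Bcl6 tumor, and the exception, tumor 3, had the lowest Ighe of its genotype. Inside that genotype the sums did not follow Ighe. Tumors 5 and 6 had the highest Ighe (160 and 163 CPM) but lower sums than tumors 1, 2 and 4. The largest part of those higher sums was Jchain in tumors 1 and 4 (2919 and 2775 CPM) and Mzb1 in tumor 2 (3375 CPM). Log2 fold changes in the list ran from -0.48 (Prdm1) to 1.88 (Tnfrsf17, at most 2.99 CPM), with a median of 0.68. Prdm1 was at 41.2 to 89.4 CPM in Bcl6 and 31.2 to 80.6 CPM in Smc3/Bcl6 tumors. Sdc1 was at 16.0 to 38.7 and 12.3 to 49.8 CPM, so the sum does not speak for each marker. T cell markers summed to 316 to 2847 and 98.1 to 2701 CPM and macrophage markers to 443 to 7899 and 270 to 8379 CPM, with 0 of 10 past the thresholds in each list. Of 9 tested mast cell and basophil markers, cells that bind IgE, none passed, and their sums were 15.6 to 174 and 26.1 to 271 CPM. The 2 highest sums of Smc3/Bcl6 tumors, 164 CPM in tumor 1 and 271 CPM in tumor 6, were nearly all Kit (157 and 264 CPM). Log2 fold changes in this list ran from -1.71 (Fcer1a) to 1.74 (Kit), with a median of -1.01. At the same thresholds, 0.868% of all 14057 tested genes were lower in Smc3/Bcl6 tumors and 1.28% higher. Of 10 germinal center markers, 1 was lower (Mybl1, a transcription factor of germinal center B cells, at 2.83 to 7.13 CPM in Bcl6 and 1.15 to 5.19 CPM in Smc3/Bcl6 tumors). Of 9 erythroid markers, 4 were higher, Slc4a1, Klf1 and Epb42 among them, with list sums of 45.3 to 1473 and 122 to 12987 CPM, and the high values of these 3 genes came from Smc3/Bcl6 tumors 4 and 6. No marker in these lists was at 0 in all tumors, and the part of other cells in the Ighe result was not tested.

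Variable and joining genes give another view of the heavy chains that the constant genes belong to. Counts on Ighv genes were 5.74 to 10.6% of the constant gene counts. The leading Ighv gene was Ighv1-64 in Bcl6 tumors 1 (21.6% of Ighv counts) and 2 (23.1%) and in Smc3/Bcl6 tumor 3 (16.7%). Ighv3-1 led in Bcl6 tumor 3 (58.8%) and in Smc3/Bcl6 tumors 1 (56.5%) and 5 (77.6%). Ighv8-12 led in Smc3/Bcl6 tumor 2 (92.4%), Ighv9-4 in tumor 6 (53.5%) and Ighv5-17 in tumor 4 (9.77%). Smc3/Bcl6 tumor 5, whose switched counts were led by Ighg2c, and Smc3/Bcl6 tumor 1, led by Igha, thus shared a leading Ighv gene but not a leading switched gene.

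The composition of switched counts was compared between all 36 pairs of tumors as the percentage of counts that would have to move from one gene to another. It ranged from 3.68% to 73.3% with a median of 39.3%. Pairs of different genotype had a median of 37.6% (18 pairs) and pairs of the same genotype 40.8% (18 pairs), so tumors of a genotype were not closer by this measure. The closest pair was Bcl6 tumor 3 and Smc3/Bcl6 tumor 1. The farthest was Smc3/Bcl6 tumors 4 and 5, led by Ighg2b and Ighg2c. Pairs share tumors and are not independent, so no test is given.

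**Figure D5:**
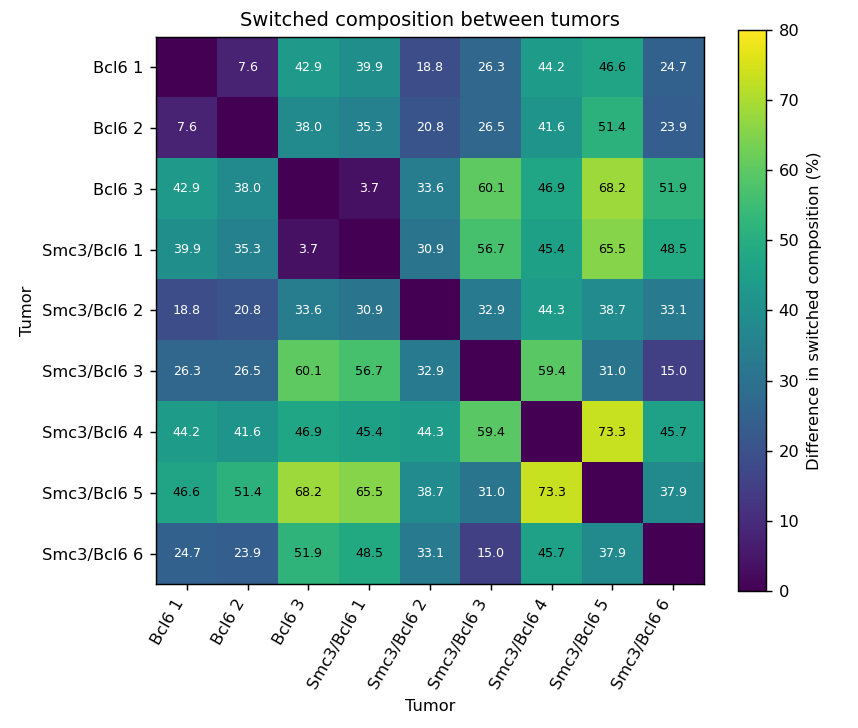
Difference in switched composition (%, color scale and printed value) between each pair of the 9 tumors, labelled by genotype and replicate on both axes. The closest pair, Bcl6 tumor 3 and Smc3/Bcl6 tumor 1, is at 3.68%, and Smc3/Bcl6 tumors 4 and 5 are the farthest at 73.3%.

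Across the 9 tumors the members moved together only in part. The highest Pearson correlation of log2 CPM between members was that of Ighg2b and Igha (r = 0.73) and the lowest that of Ighg2b and Ighg2c (r = -0.22), over 9 tumors that share depth and TMM factor within each library. Among 9147 genes with a mean of at least 10 CPM, the genes most like each member were Gpr180 (r = 0.983) and Ubac1 (0.949) for Ighm, Cnppd1 (0.927) and Iqcb1 (0.923) for Ighg3, and Btg2 and Fam46c (0.957 each) for Ighg1. For Ighg2b they were Zc3h12a (0.916) and Slc25a46 (0.909), for Ighg2c Decr2 (0.994) and Evc (0.990), for Ighe Rogdi (0.904) and BC026585 (0.896), and for Igha 2610044O15Rik8 (0.855) and 0610009O20Rik (0.847). The members themselves were left out of this search, and none of the genes found was another immunoglobulin gene. With Smc3/Bcl6 tumor 2 left out, these correlations lay between 0.855 and 0.993. Each was picked as the highest of 9147 correlations over 9 points and is a description of these tumors.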

How the data were processed

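Bulk RNA-seq libraries were prepared from 9 lymphomas with a TruSeq RNA kit and sequenced on a HiSeq2000. Per the study's methods, the authors ran nf-core/rnaseq v1.4.2 with STAR v2.6.1 on mm10 and counted reads on Gencode M12 genes with featureCounts v1.6.4. The authors deposited the whole-number raw counts per gene used here, and the submitters' processing notes also name R 4.0.2 and DESeq2 1.28.1. Whether the counting used strand is not given in the sources used here, and reads shared by IgG copies or overlapping genes may have been dropped or split.

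From these counts, TMM-scaled CPM and the genotype test were computed with edgeR 4.0.16 in R 4.3.3 (filterByExpr, 14057 genes, quasi-likelihood test, Benjamini-Hochberg adjustment), with no covariate. A gene was called where p before adjustment was below 0.1 and the log2 fold change lay beyond 0.56 in either direction, as in the study. Isotype shares were compared with two-sided exact permutation tests over 84 splits. On simulated counts of 13682 genes for this comparison, 79% of 200 genes changed by 3 on the log2 scale were called, with 5 unchanged genes called at an adjusted p below 0.05. Depth was 10156728 to 17774577 counts per tumor. DESeq2 1.42.0 and limma 3.58.1 (voom with quality weights), other scalings, other tumors, a tissue term and a replicate block were alternatives.

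Deviations from genotype means were correlated between same-numbered tumors of the 2 genotypes (r = 0.443, 0.113 and 0.155 for replicates 1 to 3 over 14057 genes). Tumors with different numbers were not compared in this way, and the labels state no pairing. The values therefore do not show that the numbers mark pairs. Over all genes, the most alike of the 36 pairs was Bcl6 tumor 2 and Smc3/Bcl6 tumor 3 (Spearman correlation 0.978). The numbers were used as a block in an alternative only. The genes named are the 7 members, Smc3 and Bcl6, list genes past the thresholds and the 2 genes most like each member. Il4, Igj, Igkc, Mzb1, Pax5, Ebf1, Prdm1, Sdc1, Tnfrsf17, Kit, Fcer1a, the leading Ighv genes and the pairs of tumors were chosen after their values were seen. Some genes of the lists are not reported here. The members and lists were chosen with earlier results of these data known. Positions, lengths and sequences come from GENCODE M21 on GRCm38, in which 97.9% of the gene IDs were found, and exons may differ from those the authors counted on.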

Additional observations from a re-analysis of the deposited data

Results flagged for a closer look

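Of 23 measures examined for a single Smc3/Bcl6 tumor far from the other 5, 3 were set aside by Dixon's test at the 95% level, where chance alone gives about 1 in 20, or 1.15 of 23. The share of Ighg2c in the 7 genes was highest in Smc3/Bcl6 tumor 5, at 6.08% against 0.194 to 1.99% in the others, with a gap of 0.694 of the range. The share of Igha was highest in Smc3/Bcl6 tumor 1, at 6.77% against 0.124 to 1.66%, with a gap of 0.770 of the range. Among switched genes only, the share of Ighg2b was highest in Smc3/Bcl6 tumor 4, at 49.0% against 7.10 to 20.7%, with a gap of 0.677 of the range. The 3 tumors differ, as do the 3 genes. Bcl6 tumors were not examined in this way, since the group has 3 members.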

How the results depend on the processing

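Ighe was past the thresholds under every alternative run, with log2 fold changes of 1.46 to 2.26 under other tools, scalings, filters, tumors or terms and 1.61 to 2.20 when 1 tumor was left out. Over all results and alternatives, 274 values kept their direction and their side of the threshold, 22 reversed, 5 counts moved and 5 values passed the threshold. The number of members past the thresholds was 1 to 2 when 1 tumor was left out. It was 2 under limma, where Ighg1 joined (log2 fold change 1.65). Leaving out Bcl6 tumor 1 or Smc3/Bcl6 tumor 3 (Ighg1 joined), Smc3/Bcl6 tumor 4 (Ighg2c) or Smc3/Bcl6 tumor 5 (Ighg2b) also gave 2. Among all genes, 180 of 14057 were called higher in the main comparison and 642 of 14057 under limma. Without those tumors in turn, it was 126 of 14637, 303 of 13830, 191 of 13762 and 186 of 13843. Under limma the log2 fold change of Ighg3 was 0.044 and that of Igha -1.49, and with the tissue label as a covariate that of Igha was -0.21. With the replicate block the log2 fold change of Ighe was 1.46 and that of Ighg1 -0.055, and without the block in the same tumors that of Ighg1 was -0.24. With the replicate block the difference in share was -0.0556 percentage points for Ighg1, -0.215 for Ighg2b and -0.489 for Ighg2c, and the block changed no call. With the tumors labelled lymph node only, it was -0.377 for Ighg2b, -0.245 for Ighg2c, -4.32 for Igha and -5.24 for all switched genes. On the log2 scale of the share, over all 9 tumors, the difference was -0.45 for Ighg2c. With 1 tumor left out, the log2 fold change was -0.65 to 0.18 for Ighg3, -0.65 to 1.27 for Igha, 0.67 to 2.27 for Ighg1, 0.64 to 1.87 for Ighg2b, 0.46 to 0.89 for Ighg2c and 0.46 to 1.53 for Ighm. The difference in share was -1.24 to 0.0727 for Ighg3, -0.267 to 0.427 for Ighg2b, -0.680 to 0.596 for Ighg2c, -3.32 to -0.249 for Igha and 0.159 to 0.525 for Ighe. The cause of these changes was not tested. Over all genes, 180 were called higher and 122 lower, against 342 and 101 with DESeq2, 642 and 1002 with limma, 576 and 812 with no filter, 130 and 192 with the tissue label as a covariate, and 45 and 254 with the replicate block. With 3 Bcl6 tumors, the smallest p of the exact test was 0.0238, and 0.25 for 3 pairs.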

Other observations

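Bcl6 tumor 3 and Smc3/Bcl6 tumor 1, which differ in genotype, label and replicate number, were the closest of 36 pairs in switched composition (3.68%), and also the closest in the use of Ighj genes (9.02%) and of Ighv genes (11.6%). Both had Ighv3-1 as the leading Ighv gene, at 58.8 and 56.5% of Ighv counts, and Ighj3 as the leading Ighj gene, at 85.1 and 79.8% of Ighj counts. Their composition of Igkv genes differed by 8.04%, whereas Bcl6 tumor 3 and Smc3/Bcl6 tumor 5 differed by 7.37% and Smc3/Bcl6 tumors 1 and 5 by 11.3%, so the likeness in Igkv genes was not limited to the pair. Over all genes their Spearman correlation was 0.920, which ranked 19 among the 36 pairs from the highest. The pair was noticed in the data, and the reason for its likeness was not tested. Whether the 2 libraries share tissue is not known from the labels, and such sharing would change the number of independent tumors behind every comparison. With both left out, a setting chosen after seeing the data, Ighe differed between the genotypes by 2.26 on the log2 scale (SE 0.63) and remained the single member past the thresholds. Smc3/Bcl6 tumor 5 also had Ighv3-1 as the leading gene, with Ighj2 in place of Ighj3 and 3.26% of switched counts on Igha.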
